A study of Mus musculus with 8 samples.

Results

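The 9 genes of the vascular endothelial growth factor (VEGF) system named Vegfa, Vegfb, Vegfc, Pgf, Flt1, Kdr, Flt4, Nrp1 and Nrp2 were followed through the cell classes of the adult mouse retina. They were taken by symbol from the 33696 genes of the count tables. Single-nucleus RNA sequencing (snRNA-seq) had been run on a 10x 3′ droplet platform, in which each captured RNA molecule carries a unique molecular identifier (UMI), with 4 libraries of control mice (replicates 1 to 4) and 4 libraries of conditional knockout mice (cKO, replicates 10 to 13). Control mice were Piezo2f/f, with both alleles of the mechanically activated channel gene Piezo2 floxed and no Cre. The cKO mice were Olig2-cre;Piezo2f/f, carrying the same floxed alleles and Cre recombinase under control of Olig2, a gene of the oligodendrocyte lineage. Both groups were females at postnatal day 120. Each library pooled the nuclei of 6 retinae that had passed a sort for NeuN and RBPMS, proteins of neurons and of retinal ganglion cells (RGCs), so that single animals cannot be told apart and the other classes are those that passed the sort. The cKO mice are also heterozygous for Olig2 through the Cre allele, and no group with Cre and unfloxed Piezo2 was analysed here. Olig2 had 1 UMI in the RGC-like nuclei of all libraries, in control replicate 2.

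VEGF ligands are secreted proteins that steer the growth, permeability and survival of blood vessels, and in the retina they are best known from vessel development and from the neovascular diseases treated with VEGF-blocking drugs. Vegfa encodes the ligand that binds the receptor tyrosine kinases Flt1 and Kdr, whereas Vegfb and Pgf (placental growth factor) encode ligands of Flt1, and Vegfc encodes a ligand of Flt4 and, once processed, of Kdr. Kdr is the main signalling receptor of blood vessel endothelium, Flt1 holds Vegfa tightly and has a soluble decoy form, and Flt4 is the receptor of lymphatic endothelium. The neuropilins Nrp1 and Nrp2 are co-receptors of VEGF ligands and also receptors of secreted semaphorins, which guide axons.

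Nuclei were placed in classes from marker UMIs alone, and none of the 9 genes was a gate marker. Of 34935 nuclei kept (15880 control, 19055 cKO), 31021 entered a class, of which 22541 were RGC-like, 2925 amacrine-like, 1598 bipolar-like, 1894 rod-like, 348 cone-like, 189 horizontal-like and 1511 Müller glia-like. Only 11 astrocyte-like and 4 endothelial-like nuclei passed the gates. Levels are given as CPM, the usual unit in which a gene's UMIs are scaled to all UMIs that the class had in that library, and n is the number of libraries, 8 for each class and 4 for horizontal-like nuclei (1 control and 3 cKO). Libraries held 35697629 to 60088630 UMIs, with a median of 3648 to 9481 UMIs in a nucleus. The marker panel of 16 Müller glia genes summed to 10972 CPM in Müller glia-like nuclei without endothelial UMIs and to 198 CPM in RGC-like nuclei, a contrast that the gates themselves set, since these genes are the gate markers. Piezo2 itself was at 17.2, 13.7, 14.4 and 11.9 CPM in RGC-like nuclei of control replicates 1 to 4 and at 14.6, 13.2, 12.6 and 8.55 CPM in cKO replicates 10 to 13, and counts taken at the 3′ end may not register the excised exons, so they do not check the genotype.

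Because these counts give the level of a transcript and not where it starts, the sequence before the start site of the 3 receptor and co-receptor genes whose class differences lead the results is shown. The windows hold the 250 bases before the RefSeq start on the coding strand, 5′ to 3′, in build GRCm38.p6, for Flt1 (chr5:147726012-147726261, minus strand), Kdr (chr5:75978456-75978705, minus strand) and Nrp1 (chr8:128358823-128359072, plus strand). Capitals mark the GC box GGGCGG or its complement.
Flt1: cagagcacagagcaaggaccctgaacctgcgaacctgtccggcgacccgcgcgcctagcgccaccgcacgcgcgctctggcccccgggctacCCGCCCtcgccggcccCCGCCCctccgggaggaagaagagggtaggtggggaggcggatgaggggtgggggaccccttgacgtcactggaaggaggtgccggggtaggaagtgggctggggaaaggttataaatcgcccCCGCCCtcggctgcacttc
Kdr: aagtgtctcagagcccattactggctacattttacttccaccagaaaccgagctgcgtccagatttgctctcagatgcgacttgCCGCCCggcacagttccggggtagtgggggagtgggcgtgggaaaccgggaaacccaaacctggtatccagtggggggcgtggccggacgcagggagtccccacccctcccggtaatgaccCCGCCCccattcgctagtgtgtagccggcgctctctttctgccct
Nrp1: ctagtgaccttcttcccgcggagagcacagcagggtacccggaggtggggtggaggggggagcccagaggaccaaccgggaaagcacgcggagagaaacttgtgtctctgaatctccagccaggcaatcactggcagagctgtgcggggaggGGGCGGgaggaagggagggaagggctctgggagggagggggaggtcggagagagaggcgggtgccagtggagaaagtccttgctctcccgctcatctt
Flt1 had 3 such matches, Kdr 2 and Nrp1 1. All 9 genes had a RefSeq start, with 11 start sites in all, and the GC box stood in 10 of the 11 windows, against 32.7% of all 32851 mouse windows of the same length. The hypoxia response core (ACGTG or GCGTG, both strands) stood in 7 of the 11, against 38.6%. The window of the first Vegfa start held 0 of these cores. Vegfa was counted through its second start site, whose window held 2 and lies downstream of the first start. The homeodomain core TAATTA and the SOX cores ACAAAG and ACAATG stood in none of them, against 4.84% and 25.2%. The 11 windows held 59.2% to 76.4% G and C, and the part of this base content in the shares was not tested. These matches are letters in a window and no measured binding.

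Müller glia-like nuclei, the class of the radial glia that span the retina, were set apart by their VEGF receptors. Flt1 and Kdr were far higher there than in RGC-like nuclei, Vegfa was higher to a smaller degree, and both neuropilins were lower. To keep endothelial nuclei out of the comparison, the 1511 nuclei were split by the summed UMIs of Cldn5, Pecam1 and Cdh5, which encode junction proteins of endothelium. The split left 1501 nuclei with 0 UMIs and 10 with at least 1 UMI, and the 1501 are the nuclei compared with the other classes.

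In the 1501 nuclei Flt1 (chromosome 5, 147498414 to 147662826, minus strand, GRCm39) was at 2019, 1862, 2030.0 and 1777 CPM in control replicates 1 to 4 and 2049, 1779.9, 2018 and 1895 CPM in cKO replicates 10 to 13. All 8 libraries lay within a narrow band and the genotypes overlapped. In RGC-like nuclei Flt1 was at 4.70, 2.07, 1.83 and 2.23 CPM in control replicates 1 to 4 and 2.83, 3.40, 2.06 and 3.12 CPM in cKO replicates 10 to 13. No RGC-like library came near any Müller glia-like library, and Flt1 was 652-fold higher in the glia (log2 fold change 9.35, SE 0.11, adjusted p = 3.02e-70, edgeR quasi-likelihood test with Benjamini-Hochberg adjustment). Without doublet removal the log2 fold change was 8.34. Müller glia-like nuclei made up 4.87% of the gated nuclei and held 91.9% of the gated Flt1 UMIs, 7961 of 8664. A Flt1 UMI was found in 93.9% of these nuclei at full depth and in 79.6% after each nucleus had been thinned to 1000 UMIs, against 1.499% and 0.3005% of RGC-like nuclei, whose median depth was 6964 UMIs against 2483 UMIs. Pooled over libraries, Flt1 was at 1959 CPM in Müller glia-like nuclei and 7.03 CPM in all other nuclei kept, ungated ones included. Abca8a, a gate marker, was at 1984 and 6.68 CPM.

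Kdr (chromosome 5, 76093487 to 76139884, minus strand, GRCm39) was at 418, 480.0, 588 and 486 CPM in control replicates 1 to 4 and 467, 721, 498 and 481 CPM in cKO replicates 10 to 13 in the same nuclei. The value of cKO replicate 11 stood above the other 7. That library held 100 of these nuclei, and control replicate 4, at 486 CPM, held 75. RGC-like nuclei had 1.46 to 4.22 CPM over the 8 libraries. In every library Kdr was higher in Müller glia-like nuclei, and the fitted difference was 193-fold (log2 fold change 7.59, SE 0.10, adjusted p = 5.06e-67, edgeR). They held 71.0% of the gated Kdr UMIs. After thinning, 36.2% of the nuclei had a Kdr UMI and 29.1% had both a Flt1 and a Kdr UMI, where the product of the separate shares is 28.8%.

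In the glia Vegfa was at 324, 233, 308 and 248 CPM in control replicates 1 to 4 and 311, 349, 323 and 266 CPM in cKO replicates 10 to 13. RGC-like nuclei had Vegfa at 166, 128, 146 and 145 CPM in control replicates 1 to 4 and 143, 148, 158 and 140.3 CPM in cKO replicates 10 to 13. The lowest glial library was above the highest RGC-like library, and the difference was 1.81-fold (log2 fold change 0.86, SE 0.06, adjusted p = 2.11e-20, edgeR). Nrp1 was lower in the glia, at 84.0 ± 14.8 CPM against 239 ± 14.1 CPM (SD, n = 8; log2 fold change -1.71, SE 0.10, adjusted p = 1.50e-25, edgeR), and Nrp2 was lower as well, at 14.9 ± 7.06 against 115 ± 7.72 CPM (log2 fold change -3.11, SE 0.16, adjusted p = 1.96e-29). In this comparison 5 of the 7 tested members were called (an adjusted p below 0.05 together with a log2 fold change beyond 0.5 in either direction), 3 higher and 2 lower, where 54.4% of all 12368 tested genes were called, 25.3% higher and 29.2% lower. Flt1 and Kdr were too low in RGC-like nuclei to pass the filter on low counts there. They could enter the test only by being high in another class, so their direction is in part set by the filter. Vegfb (-0.49, SE 0.15, adjusted p = 0.00236) and Vegfc (-0.40, SE 0.32, adjusted p = 0.257) were not called by edgeR. Vegfb lay close to the size for a call, at -0.53 to -0.33 when 1 library was left out. Pgf and Flt4 had too few UMIs to pass the filter on low counts. No Flt4 UMI was seen among 4062920 UMIs of the class, which allows up to 0.738 CPM by counting error alone, beside 1.07 ± 0.255 CPM in RGC-like nuclei.

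**Figure D1:**
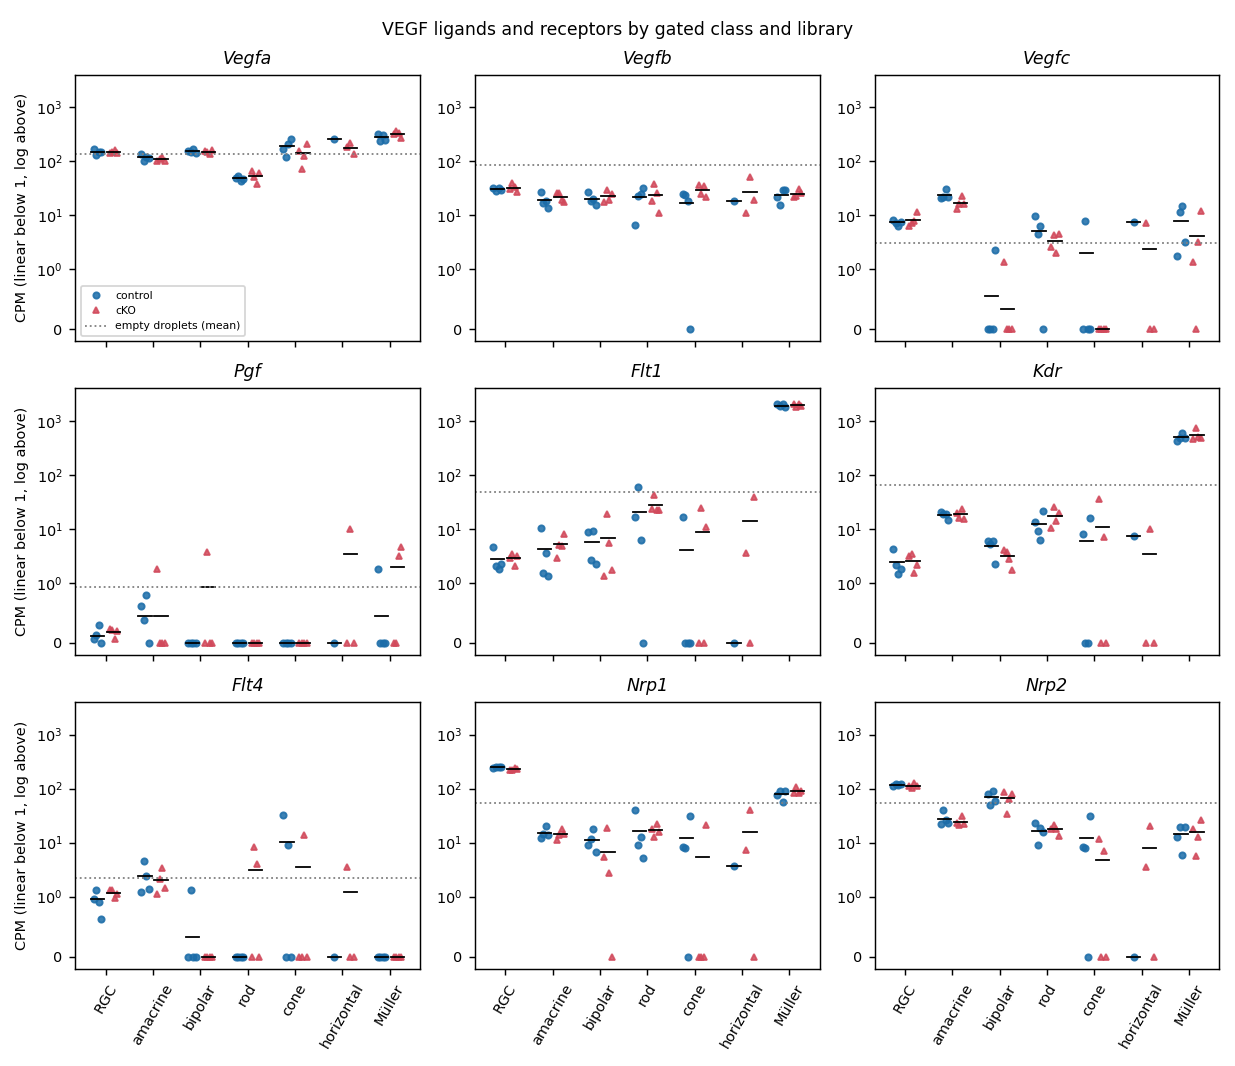
CPM (vertical axis, linear below 1 and logarithmic above) of each of the 9 genes in the 7 gated classes, with 1 point for each library (blue circles control, red triangles cKO), short lines for group means and a dotted line for the mean level in empty droplets. Flt1 and Kdr stand above every other class in Müller glia-like nuclei, and Nrp1 and Nrp2 are highest in RGC-like nuclei.

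Flt1 and Kdr are textbook genes of endothelium, so endothelial markers were read in the same nuclei. Of 23 endothelial genes other than the 9, 21 were under 10 CPM in Müller glia-like nuclei and 7 had no UMI at all. Cldn5 had 1 UMI, Pecam1 9 UMIs and Cdh5 none in all 1511 nuclei. Of the 23 genes 21 were markers of the endothelial-like gate, so that low levels in the glia and high levels in the endothelial-like nuclei are in part set by the gates. The other 2 were Slco1c1 and Podxl, a surface sialomucin of endothelium, which was at 6.15 CPM in the glia and at 556 CPM in endothelial-like nuclei. The exceptions were Slco1c1, a thyroid hormone and organic anion transporter, at 183 CPM, and Mecom, a transcriptional regulator, at 30.3 CPM. In the 4 endothelial-like nuclei Cldn5 was at 1390.4 CPM (95% Poisson interval 667 to 2557, counting error only) and Flt1 at 6535 CPM (4802 to 8690.2). Summed over the 23 genes and leaving out nuclei with an endothelial UMI, the level was 216 to 326 CPM in control and 194 to 208 CPM in cKO libraries, with Slco1c1 at 184 CPM over all 8. The 11 mural genes, which mark pericytes and vessel muscle, summed to 138 to 215 CPM in control and 175 to 287 CPM in cKO libraries, and Myh11 was the gene at 0. Pooled, the endothelial list was at 239.8 CPM in these glial nuclei and 39.2 CPM in RGC-like nuclei, and the mural list at 190.5 and 24.8 CPM. In rod-like nuclei the endothelial and mural lists were at 178.1 and 245.5 CPM, and in cone-like nuclei at 189.6 and 146.3 CPM. Mean Flt1 was only 23.8 and 6.41 CPM in these classes. Amacrine-like, bipolar-like and horizontal-like nuclei had 28.3 to 109.4 CPM of the endothelial and 30.5 to 62.1 CPM of the mural list. The part of both lists in the receptor levels was not tested.

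The 10 nuclei with an endothelial UMI were spread over 6 libraries, no library held more than 4, and none had more than 1 such UMI. Pooled, Flt1 was at 1384 CPM (1002 to 1864) in them, Kdr at 612 CPM (368 to 955) and Vegfa at 354 CPM (177 to 634), with 95% Poisson intervals in brackets. Both receptors and the ligand were thus present on either side of the split, and too few nuclei lay on the side with a UMI for a test over libraries. The share of Müller glia-like nuclei with an endothelial UMI was 0.662%, against 2.05% of the deeper RGC-like nuclei. The control libraries had 0.737 ± 0.639% and the cKO libraries 0.545 ± 0.428% (SD, n = 4 each), a difference smaller than their spread (p = 0.686, exact permutation test, two-sided, 70 assignments).

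**Figure D2:**
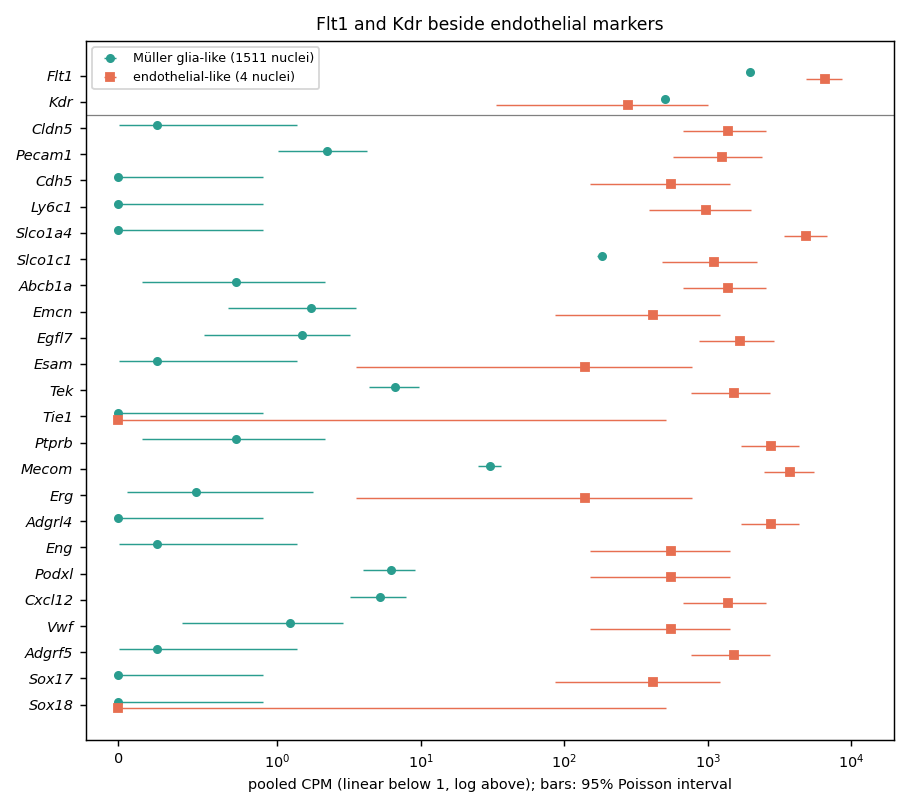
Pooled CPM (horizontal axis, linear below 1 and logarithmic above) of Flt1, Kdr and 23 endothelial genes in 1511 Müller glia-like nuclei (green circles) and 4 endothelial-like nuclei (orange squares), with 95% Poisson intervals that cover counting error only. 21 of the 23 genes were gate markers of the endothelial-like nuclei, and in the glia 21 of the 23 markers lie under 10 CPM, whereas Flt1 and Kdr lie at 1959 and 502 CPM.

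Among the ligands, Vegfa (chromosome 17, 46327919 to 46343309, minus strand, GRCm39) was measured in every class. Its order of mean levels was Müller glia-like (295 ± 41.2 CPM), cone-like (163 ± 57.5), bipolar-like (149 ± 10.2), RGC-like (147 ± 11.2), amacrine-like (112 ± 11.1) and rod-like (50.8 ± 8.39, SD, n = 8 each). Neighbours in such an order were compared by two-sided exact sign-flip permutation tests over the 8 libraries, in which p cannot go below 0.00781, and adjusted over 45 neighbour tests. RGC-like nuclei were above amacrine-like nuclei, and these above rod-like nuclei, in 8 of 8 libraries (exact permutation p = 0.00781, adjusted p = 0.032 each). Müller glia-like nuclei were above cone-like nuclei in 7 of 8 (p = 0.0156, exact permutation test, adjusted p = 0.0502). Cone-like and bipolar-like nuclei did not differ beyond their spread, and neither did bipolar-like and RGC-like nuclei (exact permutation p = 0.5 and 0.664).

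Vegfa in rod-like nuclei, the photoreceptors of dim light, was 3.89-fold below RGC-like nuclei (log2 fold change -1.96, SE 0.11, adjusted p = 4.67e-26, edgeR), with 49.2, 53.9, 43.7 and 47.3 CPM in control replicates 1 to 4 and 64.3, 50.6, 38.0 and 59.3 CPM in cKO replicates 10 to 13. All rod-like libraries lay below all RGC-like libraries. Horizontal-like nuclei, interneurons of the outer retina, had 260.0 CPM in the single control library used and 180.1, 212 and 133 CPM in 3 cKO libraries, which was not called against RGC-like nuclei (log2 fold change 0.35, SE 0.13, adjusted p = 0.0405, edgeR). The 11 astrocyte-like nuclei held 38 Vegfa UMIs, 1447 CPM (1024 to 1986), and the 4 endothelial-like nuclei held none. Empty droplets, which carry free RNA, had a mean of 136 CPM of Vegfa, and the part of free RNA in the neuronal levels was not tested.

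Vegfb (chromosome 19, 6958447 to 6965127, minus strand, GRCm39) was the ligand with the flattest profile. Its mean was 31.3 ± 4.04 CPM in RGC-like nuclei and between 20.4 and 23.8 CPM in the other 5 classes with 8 libraries. RGC-like nuclei were above Müller glia-like nuclei in 8 of 8 libraries (exact permutation p = 0.00781, adjusted p = 0.032), while no 2 neighbours among the other classes differed beyond their spread (exact permutation p = 0.508 to 0.961). In the edgeR fit Vegfb was called lower than in RGC-like nuclei in amacrine-like (-0.71, SE 0.09), bipolar-like (-0.66, SE 0.14), rod-like (-1.02, SE 0.18) and cone-like nuclei (-0.84, SE 0.30), with adjusted p from 2.57e-11 to 0.0137. The bipolar-like call was lost after thinning (-0.44), and the cone-like call was lost with DESeq2 (-0.71), after thinning (-0.42) and without control replicate 2 (-0.77) or control replicate 4 (-0.65). Empty droplets had 83.2 ± 9.20 CPM (SD, n = 8), more than any class.

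Vegfc (chromosome 8, 54530257 to 54640131, plus strand, GRCm39) was the ligand with the most uneven levels among neurons. In amacrine-like nuclei, inhibitory interneurons of the inner retina, it was at 20.8, 21.2, 30.1 and 21.2 CPM in control replicates 1 to 4 and 13.1, 15.8, 23.0 and 16.0 CPM in cKO replicates 10 to 13. RGC-like nuclei had 8.10, 7.20, 6.41 and 7.57 CPM in control replicates 1 to 4 and 6.18, 7.23, 7.75 and 11.5 CPM in cKO replicates 10 to 13. Amacrine-like nuclei were above RGC-like nuclei in 8 of 8 libraries (log2 fold change 1.28, SE 0.13, adjusted p = 5.63e-14, edgeR), and every amacrine-like library was above every RGC-like library. Bipolar-like nuclei held 2 Vegfc UMIs among 4844627, a ratio to RGC-like nuclei of 0.0538 (95% interval 0.00651 to 0.195, counting error only), and cone-like nuclei held 1 UMI, a ratio of 0.166 (0.00419 to 0.925). Rod-like nuclei held 10 UMIs and were lower than RGC-like nuclei (log2 fold change -1.36, SE 0.44, adjusted p = 0.00504, edgeR), a call that was lost when nuclei were called by the order-of-magnitude step alone (log2 fold change -0.43). The 4 endothelial-like nuclei held 9 Vegfc UMIs, 1251 CPM (572 to 2376).

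Pgf (chromosome 12, 85213409 to 85224564, minus strand, GRCm39) was close to the limit of detection throughout, with 43 UMIs in all gated nuclei. RGC-like nuclei held 27 of them, amacrine-like nuclei 9 and Müller glia-like nuclei 5, and rod-like and cone-like nuclei held none, which allows up to 1.22 and 3.82 CPM. It passed the filter on low counts in no comparison.

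Both receptors were far lower in each neuronal class than in the glia. Amacrine-like nuclei had Kdr at 20.8, 18.5, 18.9 and 14.5 CPM in control replicates 1 to 4 and 20.1, 15.8, 23.0 and 15.1 CPM in cKO replicates 10 to 13. Every one of these 8 values was above every RGC-like value, and the difference was 7.25-fold (log2 fold change 2.86, SE 0.15, adjusted p = 2.96e-28, edgeR). All 8 also lay below the level of empty droplets (65.7 CPM, 8 libraries), and the part of free RNA in them was not tested. Amacrine-like and rod-like nuclei did not differ in Kdr beyond their spread (exact permutation p = 0.281). In amacrine-like nuclei Flt1 was called slightly higher than in RGC-like nuclei (log2 fold change 0.70, SE 0.27, adjusted p = 0.0228, edgeR), but the call was lost in 7 alternatives, among them DESeq2 (0.58) and the fits without control replicate 1 (0.62), cKO replicate 12 (0.64) or cKO replicate 13 (0.48). Over the amacrine-like comparison 6 of 7 tested members were called, 3 higher and 3 lower, against 25.8% of all genes, 12.8% higher and 12.9% lower. Vegfc, Flt1 and Kdr, the 3 called higher, were too low in RGC-like nuclei to pass the filter on low counts there. Their direction, and so the count of calls, is in part set by the filter.

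Rod-like nuclei were shallow, with a median of 1062 UMIs, and their Flt1 level was 16.4, 58.4, 6.24 and 0 CPM in control replicates 1 to 4 and 23.1, 42.2, 22.0 and 22.0 CPM in cKO replicates 10 to 13. Control replicate 4 had no Flt1 UMI and control replicate 2 had the highest level, so that the libraries were spread over the whole range. Flt1 (log2 fold change 2.69, SE 0.37, adjusted p = 9.51e-10) and Kdr (log2 fold change 2.22, SE 0.37, adjusted p = 2.37e-07) were called higher than in RGC-like nuclei by edgeR. With nuclei called by the order-of-magnitude step alone these values were 4.17 and 2.96, and without doublet removal Flt1 was at 2.05. The means over libraries, 23.8 ± 18.8 CPM for Flt1 and 14.8 ± 6.60 CPM for Kdr (SD, n = 8), lay below those of empty droplets, 48.3 and 65.7 CPM, and Flt1 in control replicate 2 lay above its empty-droplet mean. The 16 Müller glia genes, all detected, summed to 295 to 705 CPM in control and 422 to 746 CPM in cKO rod-like libraries, against 140 to 253 and 175 to 250.3 CPM in RGC-like libraries. The part of free RNA in the rod-like values was not tested. All 7 tested members were called in rod-like nuclei, against 58.2% of all genes, 24.4% higher and 33.8% lower. Flt1 and Kdr were too low in RGC-like nuclei to pass the filter on low counts there, so their direction is in part set by the filter.

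Flt4 (chromosome 11, 49500090 to 49543582, plus strand, GRCm39) had 248 UMIs in all gated nuclei. It was at 2.22 ± 1.25 CPM in amacrine-like and 1.07 ± 0.255 CPM in RGC-like nuclei (SD, n = 8 each), from 41 and 194 UMIs, beside 2.21 CPM in empty droplets. Cone-like nuclei held 7 Flt4 UMIs, 8.91 CPM (3.58 to 18.3), and rod-like nuclei 4 UMIs, 1.63 CPM (0.443 to 4.16), with 95% Poisson intervals in brackets. Cone-like, amacrine-like, rod-like and RGC-like nuclei, in this order of means, did not differ from their neighbours beyond their spread (exact permutation p = 0.352, 0.562 and 0.766). RGC-like nuclei were above bipolar-like nuclei in 8 of 8 libraries (exact permutation p = 0.00781, adjusted p = 0.032). Bipolar-like nuclei held 1 UMI in all, so that 7 of their libraries were at 0, with a ratio to RGC-like nuclei of 0.19 (95% interval 0.00478 to 1.07), which at this depth does not exclude equal levels.

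Nrp1 (chromosome 8, 129085085 to 129231082, plus strand, GRCm39) was the member with the highest share of its UMIs in RGC-like nuclei. There it was at 239.9, 249, 251 and 254 CPM in control replicates 1 to 4 and 217, 220.5, 245 and 232 CPM in cKO replicates 10 to 13. RGC-like nuclei held 98.4% of the gated Nrp1 UMIs and 84.9% of all gated UMIs, and 65.6% of them had a Nrp1 UMI at full depth and 20.8% after thinning. The order continued with Müller glia-like (84.0 ± 14.8 CPM) and rod-like nuclei (16.8 ± 10.5 CPM), and both steps held in 8 of 8 libraries (exact permutation p = 0.00781, adjusted p = 0.032 each). Amacrine-like (-4.10, SE 0.10), bipolar-like (-4.91, SE 0.16), rod-like (-4.13, SE 0.17), cone-like (-5.45, SE 0.32) and horizontal-like nuclei (-4.68, SE 0.36) were all called lower than RGC-like nuclei on the log2 scale (edgeR, adjusted p at most 3.31e-19). Under the alternatives the least certain of these were cone-like nuclei, at -6.68 to -4.85, and horizontal-like nuclei, at -5.63 to -3.89. The level in empty droplets was 54.6 CPM, above that of all 5 classes.

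Nrp2 (chromosome 1, 62742444 to 62857854, plus strand, GRCm39) followed a different order. RGC-like nuclei had 112, 120.4, 115 and 120.2 CPM in control replicates 1 to 4 and 111, 102, 128 and 113 CPM in cKO replicates 10 to 13. Bipolar-like nuclei, which link photoreceptors to ganglion cells, had 78.2, 48.5, 88.9 and 58.2 CPM in control replicates 1 to 4 and 87.2, 33.3, 63.5 and 79.5 CPM in cKO replicates 10 to 13. The bipolar-like libraries spread more widely and all lay below the RGC-like libraries (log2 fold change -0.84, SE 0.10, adjusted p = 1.52e-11, edgeR). They were in turn above amacrine-like nuclei (25.9 ± 6.42 CPM) in 8 of 8 libraries (exact permutation p = 0.00781, adjusted p = 0.032). Rod-like, Müller glia-like and cone-like nuclei had means of 17.1, 14.9 and 8.30 CPM, and neighbours in this order did not differ beyond their spread (exact permutation p = 0.562 and 0.141). Empty droplets had 54.2 CPM of Nrp2, above the means of these 3 classes and of amacrine-like nuclei and within the spread of the bipolar-like libraries, and the part of free RNA was not tested. In the 4 horizontal-like libraries used, Nrp2 had 3 UMIs. Among bipolar-like nuclei 4 of 7 tested members were called, all lower, against 47.9% of all genes, 20.7% higher and 27.2% lower. Vegfc, among these 4, had 2 UMIs in bipolar-like nuclei and passed the filter on low counts through other classes. The counts were 4 of 7 in cone-like nuclei, all lower (background 51.5%, 18.1% higher and 33.4% lower), and 2 of 7 in horizontal-like nuclei, both lower (background 29%, 9.88% higher and 19.1% lower). The cone-like count includes Vegfc, which had 1 UMI there and passed the filter through other classes. Its log2 fold change ran from -7.94 to -2.72 when 1 library was left out.

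Within amacrine-like nuclei 4 of the 9 VEGF genes differed by transmitter, in a comparison added after the class levels had been seen. Nuclei with an Slc6a9 UMI (the glycine transporter) and no Gad1 or Gad2 UMI (the GABA-making enzymes) were set against nuclei with the reverse pattern, starburst nuclei apart, which gave 443 glycine-type and 1715 GABA-type nuclei. Vegfc was 32.3-fold, Kdr 16.8-fold and Nrp2 3.21-fold higher in glycine-type nuclei, and Vegfa 1.63-fold. All 4 of the 5 tested members that were called were called higher, where 28.9% of the 8335 tested genes were called, 13.1% higher and 15.7% lower. Vegfc and Kdr reached at most 8.52 and 9.003 CPM in a GABA-type library and passed the filter on low counts through the glycine-type libraries. They could enter the test only by being high there, so the shared direction is in part set by the filter. Among the members that did not pass the filter, Flt1 and Nrp1 had higher means in glycine-type than in GABA-type nuclei. Flt4 (1 against 26 UMIs, mean 0.498 against 2.23 CPM) and Pgf (0 against 9 UMIs) had lower means there.

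Glycine-type nuclei had Vegfc at 126, 150.1, 215 and 162 CPM in control replicates 1 to 4 and 106, 103, 110.4 and 125 CPM in cKO replicates 10 to 13. GABA-type nuclei had 8.52, 3.22, 4.29 and 3.53 CPM in control replicates 1 to 4 and 1.20, 7.67, 3.06 and 5.00 CPM in cKO replicates 10 to 13. The lowest glycine-type library was more than 10-fold above the highest GABA-type library (log2 fold change 5.01, SE 0.21, adjusted p = 1.66e-15, edgeR). The control and cKO ranges of glycine-type nuclei met without overlapping, at 125.7 and 124.5 CPM, and no test between genotypes was run on this gate. How often other members or gates separated in the same way was not counted.

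In glycine-type nuclei Kdr was at 109, 86.7, 87.7 and 140.4 CPM in control replicates 1 to 4 and 88.2, 81.2, 102 and 99.6 CPM in cKO replicates 10 to 13. GABA-type nuclei had Kdr at 1.41 to 9.003 CPM over the 8 GABA-type libraries (log2 fold change 4.07, SE 0.23, adjusted p = 3.13e-13, edgeR). No library overlapped. Starburst nuclei (315 nuclei with a Chat or Slc5a7 UMI, cholinergic amacrine cells) had Kdr at 20.2 ± 9.60 CPM in the 4 control libraries and 21.5 ± 8.63 CPM in the 4 cKO libraries (SD), between the other gates. Flt1 was at 5.95 ± 8.10 CPM in control and 15.9 ± 14.4 CPM in cKO glycine-type nuclei and did not pass the filter on low counts. The summed Müller glia panel was 113 to 394 CPM in control and 192 to 473 CPM in cKO glycine-type libraries, against 283 to 380.2 and 345 to 403 CPM in GABA-type libraries. Pooled, the glial panel was at 292 CPM in glycine-type and 355 CPM in GABA-type nuclei, the rod panel of 9 genes at 1218 and 603 CPM, the bipolar panel of 12 genes at 422 and 1022 CPM, and the endothelial list of 23 genes at 48.5 and 46.7 CPM. The part of other cells' RNA in the differences between the gates was not tested.

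The co-receptor Nrp2 was at 45.7, 83.4, 71.8 and 64.8 CPM in control replicates 1 to 4 and 35.3, 73.8, 94.1 and 46.7 CPM in cKO replicates 10 to 13 in glycine-type nuclei. In GABA-type nuclei Nrp2 was at 17.04, 32.2, 16.6 and 16.96 CPM in control replicates 1 to 4 and 24.0, 13.1, 16.1 and 19.98 CPM in cKO replicates 10 to 13. The groups did not overlap, although the glycine-type libraries spread more widely (log2 fold change 1.68, SE 0.21, adjusted p = 4.48e-07, edgeR). Vegfa was at 132 to 200.05 CPM and 87.0 to 121 CPM in the 2 gates, again without overlap (log2 fold change 0.71, SE 0.11, adjusted p = 6.68e-06, edgeR), and Vegfb was not called (log2 fold change 0.31, SE 0.25, adjusted p = 0.354). Glycine-type nuclei were the shallower ones, with a median of 3823 against 6075 UMIs. After thinning, only Vegfa and no other member of this contrast had enough UMIs for the filter, with a log2 fold change of 0.68.

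**Figure D3:**
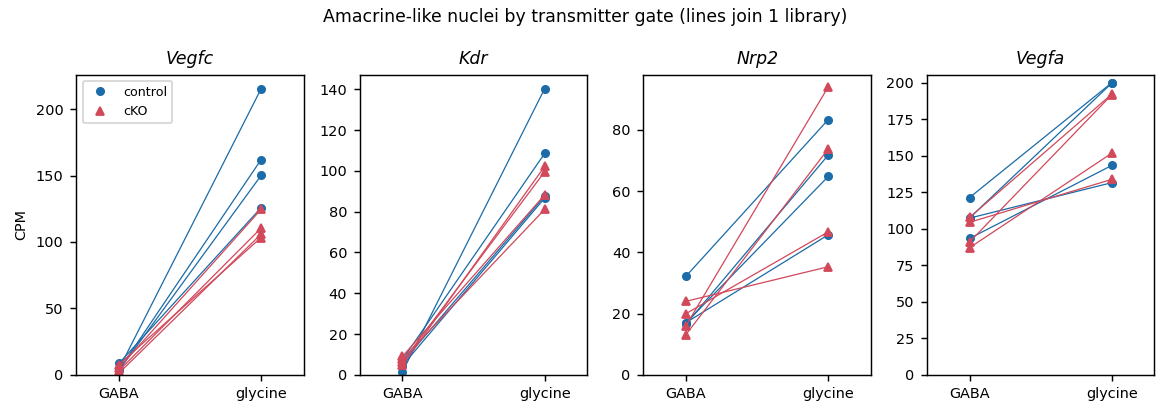
CPM of Vegfc, Kdr, Nrp2 and Vegfa (vertical axes from 0) in GABA-type and glycine-type amacrine-like nuclei, with lines joining the values of 1 library (blue circles control, red triangles cKO). Each of the 8 lines rises in each of the 4 plots.

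RGC-like nuclei were next divided by single marker genes of ganglion cell types, comparing nuclei with at least 1 UMI of the marker with all others. Opn4, the melanopsin of intrinsically photosensitive ganglion cells, marked 803 nuclei. In these Vegfc was at 27.6, 33.7, 27.4 and 30.8 CPM in control replicates 1 to 4 and 22.2, 25.4, 36.7 and 48.9 CPM in cKO replicates 10 to 13. The other RGC-like nuclei had 7.40, 6.01, 5.34 and 6.30 CPM in control replicates 1 to 4 and 5.32, 6.27, 6.49 and 9.83 CPM in cKO replicates 10 to 13. The ranges did not overlap, and Vegfc was 4.82-fold higher (log2 fold change 2.27, SE 0.13, adjusted p = 1.47e-17, edgeR).

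Nrp1 went the other way, at 140.0, 110.0, 117 and 117 CPM in control replicates 1 to 4 and 116, 113, 127 and 127 CPM in cKO replicates 10 to 13 in Opn4-positive nuclei and 223 to 262 CPM in the others (log2 fold change -1.04, SE 0.05, adjusted p = 9.36e-19, edgeR). Of 7 tested members these 2 were called, against 12.3% of all genes (6.59% higher and 5.75% lower). Opn4-positive nuclei had a median of 8538 UMIs and the others 6918.5 UMIs. At an equal depth of 1000 UMIs both differences remained, with 2.25 for Vegfc and -1.12 for Nrp1 on the log2 scale.

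Foxp2, a transcription factor of several small ganglion cell types, marked 4654 nuclei with the opposite pattern. Vegfc was at 2.54, 1.04, 2.44 and 3.46 CPM in control replicates 1 to 4 and 1.54, 2.37, 2.22 and 2.18 CPM in cKO replicates 10 to 13, against 7.23 to 13.8 CPM without Foxp2 (log2 fold change -2.04, SE 0.15, adjusted p = 4.78e-13, edgeR). All Foxp2-positive libraries lay below all others. Nrp1 was higher, at 344, 340.3, 321 and 339 CPM in control replicates 1 to 4 and 305, 274, 355 and 319 CPM in cKO replicates 10 to 13 against 198 to 235 CPM (log2 fold change 0.59, SE 0.03, adjusted p = 1.05e-18), and Nrp2 was lower, at 70.2 to 89.8 against 109 to 137 CPM (log2 fold change -0.61, SE 0.03, adjusted p = 1.71e-16). The 2 neuropilins thus differed in opposite directions in the same nuclei. Flt1 was also called higher (log2 fold change 1.21, SE 0.24, adjusted p = 1.37e-04), at low levels of 1.39 to 11.6 CPM that overlapped the 1.12 to 3.18 CPM of the other nuclei. All these levels lay below the mean of 48.3 CPM of Flt1 in empty droplets, and the part of free RNA was not tested. Foxp2-positive nuclei had a median of 6420 UMIs and the others 7137 UMIs. The 4 calls of 7 tested members stand beside 11.1% of all genes (4.3% higher and 6.78% lower).

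Spp1 (osteopontin, a marker of alpha ganglion cells) was detected in 1561 nuclei. Nrp2 was at 72.6, 65.4, 62.6 and 50.9 CPM in control replicates 1 to 4 and 51.3, 54.0, 59.3 and 50.5 CPM in cKO replicates 10 to 13 in these, below the 109.5 to 137 CPM of the others (log2 fold change -1.08, SE 0.05, adjusted p = 4.90e-20, edgeR), with no overlap. Nrp1 was lower too (log2 fold change -0.69, SE 0.03, adjusted p = 4.24e-19), but at 1000 UMIs in each nucleus the value was -0.41 and no longer called, and the median depth was 10889 UMIs with Spp1 and 6807.5 UMIs without it. Vegfc was higher (log2 fold change 0.74, SE 0.12, adjusted p = 3.33e-06), at 6.16 to 21.1 against 6.15 to 10.0 CPM. Of 8 tested members 3 were called, beside 16.7% of all genes (8.33% higher and 8.35% lower).

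The 563 nuclei with Zic1, a zinc finger transcription factor, held 6 Vegfc UMIs, and 4 of the 8 libraries had none (log2 fold change -2.55, SE 0.46, adjusted p = 1.16e-05, edgeR). The gene passed the filter on low counts through the nuclei without Zic1, which held 1362 Vegfc UMIs. Its log2 fold change ran from -3.05 to -2.27 when 1 library was left out. The median depth was 7447 UMIs with Zic1 and 6946.5 UMIs without it. Vegfc was the only call among 7 tested members there, against 9.19% of all genes (2.99% higher and 6.2% lower). The 1428 nuclei with a Piezo2 UMI had Nrp2 at 163, 198, 161 and 157 CPM in control replicates 1 to 4 and 148, 108, 186 and 189 CPM in cKO replicates 10 to 13, against 101 to 123 CPM in those without (log2 fold change 0.60, SE 0.05, adjusted p = 4.06e-12, edgeR). The ranges overlapped through cKO replicate 11, the lowest of the Piezo2-positive libraries. Nrp1 also leaned to Piezo2-positive nuclei without reaching the size for a call (log2 fold change 0.40, SE 0.03, adjusted p = 1.42e-12), and 1 of 7 members was called beside 5.7% of all genes (2.32% higher and 3.38% lower). For Tbr1 (674 nuclei) and Cartpt (10268 nuclei), markers of other ganglion cell groups, no tested member was called (background 4.85%, 1.92% higher and 2.93% lower, for Tbr1 and 1.97%, 1.06% higher and 0.909% lower, for Cartpt). The Cartpt gate took 10268 of the 22541 RGC-like nuclei, and the part of free RNA in this gate was not tested, so the result describes the gate and not a cell group. Neither was Vegfa (-0.20, SE 0.17) nor Nrp2 (0.25, SE 0.25) called between 883 ON and 240 OFF bipolar-like nuclei, a comparison also added after the levels had been seen (background 24%, 12.9% higher and 11.1% lower). Nrp1 did not pass the filter on low counts there, with 13 UMIs (mean 6.02 CPM) in ON and 24 UMIs (mean 36.6 CPM) in OFF nuclei. At an unadjusted p under 0.05, Nrp1 and Nrp2 passed for Tbr1 and Vegfc, Nrp1 and Nrp2 for Cartpt, all under the size for a call.

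The libraries of OFF bipolar-like nuclei, described after their values were seen, had Vegfa at 227, 194, 167 and 198 CPM in control replicates 1 to 4 and 133, 84.0, 138 and 139 CPM in cKO replicates 10 to 13. The control and cKO ranges did not overlap, each value rested on 3 to 25 UMIs from 16 to 46 nuclei, and the difference between genotypes in this gate was not tested. This case was picked from 9 members in many gates, and how often others separated in the same way was not counted. An exact permutation test over 4 and 4 libraries cannot give p below 0.0286. ON nuclei had 128 to 171 CPM in control and 127 to 176 CPM in cKO libraries, which overlapped. The means of ON and OFF nuclei were 146 and 196 CPM in controls and 151 and 123 CPM in cKO. The OFF means rest on the same few UMIs, and whether the difference between the gates depends on genotype was not tested. The value of -0.20 was fitted over all 8 libraries of both groups.

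**Figure D4:**
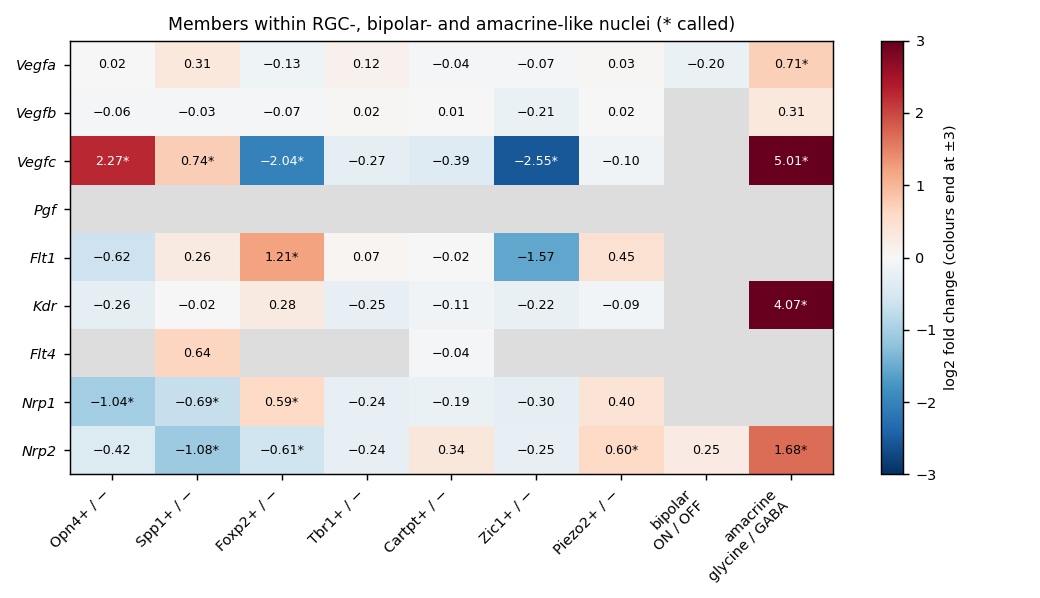
Log2 fold changes (colour, ending at 3 in either direction, with the value printed) of the 9 genes between marker-positive and marker-negative RGC-like nuclei and between the bipolar-like and amacrine-like gates, from edgeR fits with the library as a block. Asterisks mark called values and grey cells genes with too few UMIs. Vegfc is the row with the widest range, from -2.55 for Zic1 (6 UMIs in the positive nuclei) to 5.01 for glycine-type amacrine-like nuclei.

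The genotypes were compared because Olig2-cre is aimed at oligodendrocyte lineage cells, and the retina serves to look for effects of the driver outside them. No member was called in any class between cKO and control libraries, where the background was 0% of genes in RGC-like, amacrine-like, bipolar-like, rod-like and cone-like nuclei and 0.0493% in Müller glia-like nuclei, all called lower, or 0.0495% without the nuclei that held an endothelial UMI. In Müller glia-like nuclei the log2 fold change of cKO over control was -0.01 (SE 0.10) for Flt1, 0.07 (SE 0.14) for Kdr, 0.12 (SE 0.13) for Vegfa, 0.19 (SE 0.19) for Nrp1 and 0.08 (SE 0.32) for Vegfb (edgeR, adjusted p = 1.00 each). The glial receptor levels given above overlapped between genotypes for both Flt1 and Kdr.

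In RGC-like nuclei the differences were -0.18 (SE 0.07) for Nrp1, -0.10 (SE 0.09) for Nrp2, -0.05 (SE 0.08) for Vegfa and 0.11 (SE 0.19) for Vegfc, and Vegfb, Flt1, Kdr and Flt4 were between 0.03 and 0.18. Nrp1 had the smallest p of the members in this class, 0.0304 before adjustment (edgeR, adjusted p = 0.991), with 3 of 4 cKO libraries below all controls. In amacrine-like nuclei Vegfc had a log2 fold change of -0.52 (SE 0.20, unadjusted p = 0.0222, edgeR, adjusted p = 1.00), where cKO replicate 12 lay within the control range and the other 3 lay below it. The cKO libraries of bipolar-like, rod-like and cone-like nuclei differed from control by -0.08, 0.10 and -0.30 for Vegfa. Over all genes, edgeR called 0 of 18202 in RGC-like nuclei, where 617 had an unadjusted p under 0.05 and DESeq2 called 3, and 0 of 13046 in amacrine-like nuclei, where 545 had such a p and DESeq2 called 4. In bipolar-like, rod-like and cone-like nuclei edgeR and DESeq2 called 0, with 240, 195 and 83 genes at an unadjusted p under 0.05. In Müller glia-like nuclei edgeR called 4 of 8116, none of them a VEGF gene, with 0 calls without control replicate 3 and 16 without control replicate 4, and DESeq2 also called 4, of which 3 were shared.

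**Figure D5:**
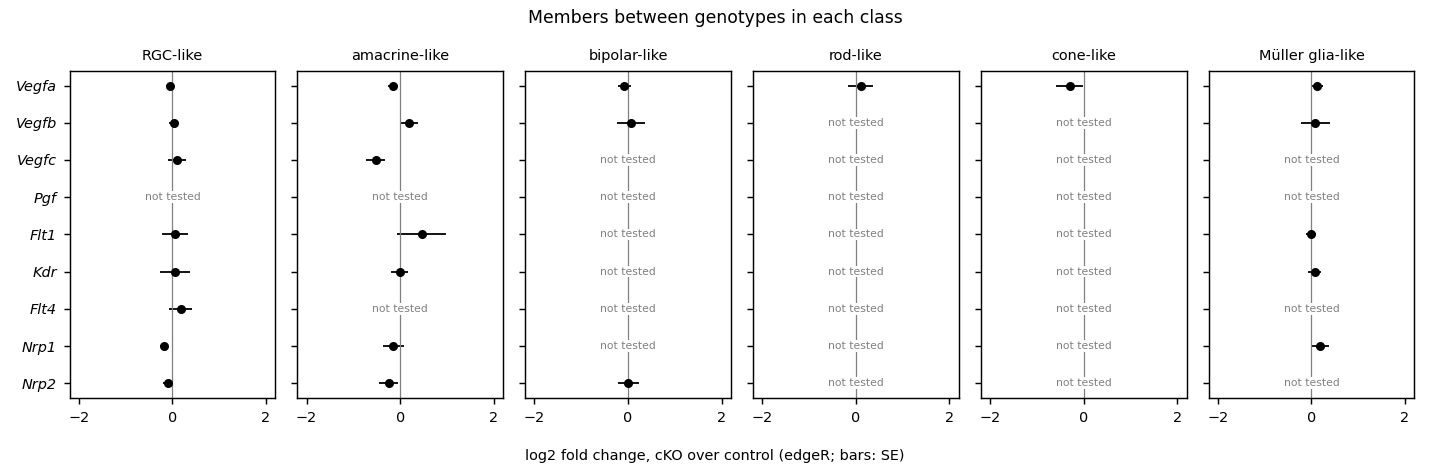
Log2 fold change of cKO over control (horizontal axis) with its SE for each of the 9 genes in 6 classes, from edgeR fits over 4 libraries in each group. No value was called, and genes with too few UMIs are written as not tested.

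Other genes of the VEGF system were read from a list of 40 partners and signalling genes. In Müller glia-like against RGC-like nuclei 20 of the 40 had enough UMIs, 6 were higher and 10 lower, beside 25.3% higher and 29.2% lower of all genes tested. The largest increases were in Notch1, the receptor of a pathway that restrains vessel sprouting (7.46), the semaphorin Sema3f, a neuropilin ligand (2.92), and Adamts3, a protease that matures Vegfc (1.92). Those called lowest were Plxna2, a semaphorin receptor subunit (-4.82), the semaphorin Sema3a (-4.10) and the adaptor Shb (-3.30). The median over the 20 was -0.22, against -0.06 over all genes tested. In amacrine-like nuclei 3 of 20 were higher, led by the semaphorin co-receptor Plxna4 (1.69), and 4 lower, led by Sema3e (-4.45), beside 12.8% higher and 12.9% lower of all genes. Between glycine-type and GABA-type nuclei 2 of 12 were higher, Sema3a (1.56) and Src (0.77), and 3 lower, beside 13.1% higher and 15.7% lower of all genes. Between genotypes none was called in any class.

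Because Vegfa is a target gene of the hypoxia response, 20 genes of that response were read beside it. In Müller glia-like against RGC-like nuclei 6 of 17 tested were higher, among them the hypoxia-inducible factor subunits Epas1 (5.12) and Hif3a (4.33) and the glucose transporter Slc2a1 (3.28), where the share of all genes was 25.3% higher and 29.2% lower. The 6 that were lower included Pfkfb3 (-1.86), Pdk1 (-1.72) and Ero1a (-1.52), all enzymes. The median of the 17 was -0.15, against -0.06 over all genes tested. Between glycine-type and GABA-type amacrine-like nuclei 4 of 11 were higher and none lower (all genes 13.1% higher and 15.7% lower), with Hif1a (1.77), the oxygen sensor Egln1 (1.02) and Pdk1 (0.93) at the top and a list median of 0.31 beside 0.03 over all genes. In rod-like nuclei, where Vegfa was lowest, 6 of 17 were higher than in RGC-like nuclei, led by Epas1 (5.41), Hk2 (4.74) and Ndrg1 (3.89), and 5 were lower (all genes 24.4% higher and 33.8% lower). No gene of this list was called between genotypes.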

How the data were processed

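Each of the 8 libraries came as a matrix of UMI counts, not normalized, that the authors deposited. It was made per the labels with Cell Ranger 7.0.0 on GRCm39, with empty droplets included and no annotation of nuclei. Nuclei were called per library by an order-of-magnitude step (at least 10% of the 99th percentile of the top 8000 barcodes) plus an ambient-profile test (at least 500 UMIs, adjusted p at most 0.001). Of 12695972 barcodes 45918 were called and 9606 removed by quality filters (under 200 genes, over 5% mitochondrial UMIs, 5 median absolute deviations, or 3 for the mitochondrial share). The highest Scrublet scores were removed as doublets at 0.8% per 1000 nuclei, 1377 nuclei or 3.79%. Of 34796 distinct barcodes 139 occurred in more than 1 library.

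A nucleus entered the class whose markers gave the highest level relative to that class, with at least 3 UMIs of at least 2 markers, at least 0.33 of the reference level and 1.5 times the next class, and 3914 nuclei (11.2%) stayed ungated. The VEGF genes, Slco1c1 and Podxl were no gate markers. Ganglion cell gates used at least 1 UMI of the marker. Thinning left out 2158 nuclei under 1000 UMIs.

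Counts were summed per library and class (more than 10 nuclei and 1000 counts) and tested by quasi-likelihood in edgeR 4.0.16 under R 4.3.3 (TMM factors, filterByExpr, Benjamini-Hochberg over all tested genes), with the library as a block between classes and genotype alone between groups. For a call, the adjusted p had to be below 0.05 and the log2 fold change beyond 0.5 in size. Gate markers were left out of the counts of calls. Alternatives were DESeq2 1.42.0, no filter on low counts, the order-of-magnitude step alone, no doublet removal, a stricter gate (6 UMIs), thinning, and leaving out each library. The fits were tested on simulated counts with 200 changed genes. Other steps ran in Python 3.11.15 with scanpy 1.11.5.

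All 9 members were named. Of each list at most the 3 called genes with the largest change in a direction were named, and for likeness the 3 genes with the highest r, which are not reported here for Vegfb. The members and lists were chosen with earlier results of these data known. Libraries were the replicates, from separately pooled retinae, so p-values measure the spread between these libraries. Intervals and floors of counts cover counting error only. Positions came from GENCODE M39. Nrp1 and Nrp2 each overlap another gene on their strand (Mir1903 and Gm37121), and counts were per gene, so that isoforms were not told apart. Labels of the cKO samples give the age but not the sex, which the series description gives for both groups.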

Additional observations from a re-analysis of the deposited data

Results flagged for a closer look

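In groups of 4 libraries, 4 of 46 tested values held a library that stood apart by Dixon's criterion, where chance gives about 1 in 20. Vegfc in amacrine-like nuclei of control replicate 3 was at 30.1 CPM, with the other controls at 20.8 to 21.2 CPM. Flt1 in RGC-like nuclei of control replicate 1 was at 4.70 CPM, with the other controls at 1.83 to 2.23 CPM. Kdr in Müller glia-like nuclei of cKO replicate 11 was at 745 CPM, with the other cKO libraries at 467 to 497 CPM. Nrp2 in amacrine-like nuclei of cKO replicate 12 was at 31.3 CPM, with the other cKO libraries at 20.9 to 22.6 CPM.

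Values outside the compared classes also stood out. The 11 astrocyte-like nuclei, 10 of them from control libraries, had pooled levels of 1447 CPM of Vegfa (38 UMIs) and 190.4 CPM of Nrp1 (5 UMIs). The 4 endothelial-like nuclei had 1251 CPM of Vegfc (9 UMIs) and 6535 CPM of Flt1 (47 UMIs). Vegfb was at 83.2 CPM in empty droplets, above its highest class mean of 31.3 CPM.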

How the results depend on the processing

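No paired analysis was possible because the replicate numbers of the genotypes do not overlap. Within libraries, where the library was the block, no other count moved by over 1.5 times when the block was left out, except Cartpt, from 322 to 207 (no replicate block). Of 130 member values, 43 were called, and 38 of these kept their direction and call under every alternative that could be fitted. The other 5 were Flt1 in amacrine-like, Vegfb in bipolar-like (-0.44 after thinning), Vegfc in rod-like, Vegfb in cone-like nuclei (-0.71 with DESeq2, -0.42 after thinning, -0.77 without control replicate 2 and -0.65 without control replicate 4) and Nrp1 with Spp1. Among 1861 alternative values 14 lost a call, 14 gained one and 1 reversed, Flt1 with Zic1, from -1.57 to 0.92 without doublet removal. Another 109 changed sign without being called in either fit. The cause of these changes was not tested.

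Counts of genes called between genotypes moved with DESeq2 to 3 in RGC-like and 4 in amacrine-like nuclei. Without the filter on low counts they were 51 in amacrine-like, 16 in bipolar-like, 57 in rod-like, 5 in cone-like and 62 in Müller glia-like nuclei (49 with the endothelial-UMI nuclei left out). The stricter gate gave 1 in amacrine-like nuclei. Without doublet removal the counts were 1 in rod-like and 1 in Müller glia-like nuclei, 2 with those nuclei left out, and after thinning both glial counts were 0. Leaving out 1 library gave 0 to 4 calls in amacrine-like nuclei (above 0 without control replicate 4 or cKO replicate 10 or 13), 0 to 2 in rod-like (control replicate 4 or cKO replicate 12), 0 to 1 in cone-like (control replicate 4 or cKO replicate 10) and 0 to 16 in Müller glia-like nuclei, or 0 to 17 with those nuclei left out, lowest without control replicate 3 and highest without control replicate 4.

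Between classes, no filter gave 6200 calls for amacrine-like, 10267 for Müller glia-like, 1272 for bipolar ON against OFF and 3629 for the transmitter gates, against 3189, 6730, 666 and 2406. After thinning, which lowers the UMIs tested, the counts were 2056 for amacrine-like, 3868 bipolar-like, 4133 cone-like, 1863 horizontal-like, 4391 Müller glia-like, 802 Opn4, 752 Spp1, 815 Foxp2, 281 Tbr1, 127 Cartpt, 527 Zic1, 326 Piezo2, 269 bipolar ON against OFF and 823 for the transmitter gates.

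The share of Müller glia-like nuclei with an endothelial UMI differed by -0.191 percentage points and by 0.00748 without control replicate 1, with -0.437 to 0.00748 over all libraries left out. The contrast of glial nuclei with and without an endothelial UMI, its interaction with genotype and a split at 2 UMIs could not be fitted, since no library held more than 10 nuclei with a UMI and no nucleus held 2.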

Other observations

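Genes whose class profile was most like that of a member were found by Pearson's r of log2(CPM + 1) over the 7 gated classes, as a description, among 16146 genes of at least 5 CPM in a class. All points come from the same 8 libraries and differ in depth. The named genes were the highest of 16146 over only 7 points, so a high r is in part set by this choice. For Flt1 and Kdr 1 class, Müller glia-like nuclei, lay far above the others, and Flt4 had only 248 UMIs. For Flt1 these were Fhl5, D630033O11Rik and Prodh, for Kdr Gas1, Ankrd28 and Slitrk2, for Nrp1 Tmem94, Cep83 and Gramd1c, and for Nrp2 Bdnf, Thpo and Cebpb. For Vegfa they were Gm45820, Sepsecs and Micall1, for Vegfc Msmo1, 1700084C06Rik and 4930587E11Rik, and for Flt4 Nfs1, Pacs1 and Smyd5. Among the members themselves Flt1 and Kdr had the highest r (0.94), followed by Vegfb and Nrp1 (0.83).

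In RGC-like nuclei thinned to 1000 UMIs, 2.46% had both a Nrp1 and a Nrp2 UMI, where the product of the separate shares is 2.23%. In Müller glia-like nuclei 20.4% had both a Flt1 and a Vegfa UMI, where the product is 19.6%.

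The 4 genes called lower in cKO Müller glia-like nuclei, named after their values were seen, were Cacnb2 (74.2 ± 16.9 CPM in controls and 21.6 ± 6.17 CPM in cKO), Pde1a (28.2 ± 6.37 and 3.85 ± 4.97 CPM), Nxph1 (155 ± 86.9 and 37.6 ± 17.5 CPM) and Csmd3 (83.9 ± 30.9 and 20.7 ± 9.53 CPM, SD, n = 4 each). The control and cKO ranges of Nxph1 overlapped (lowest control 49.8 CPM, highest cKO 50.04 CPM), and DESeq2 did not call Nxph1 but called Zfp804b (log2 fold change -0.51). In RGC-like nuclei of controls Cacnb2, Pde1a, Nxph1 and Csmd3 were at 241, 29.3, 177 and 1338 CPM. The part of free RNA in these differences was not tested.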
